A study of Rattus norvegicus with 12 samples.

Results

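Sox11 and Sox4 were followed in rat dorsal root ganglia over the first hours after the sciatic nerve had been cut. The genes were taken by name from the array annotation: every probe whose gene name was Sox11 or Sox4 was kept, which gave 2 genes of 29626 tested and 4 probes of 41012 on the array. Sox11 had 1 probe and Sox4 had 3. On each of the 12 arrays all 4 stood well above background.

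Dorsal root ganglia hold the cell bodies of sensory neurons. Male Sprague-Dawley rats were anaesthetised with an injected mixture of trichloroacetaldehyde monohydrate (chloral hydrate), magnesium sulfate and sodium pentobarbital, a segment of the left sciatic nerve was removed at mid-thigh, and L4-6 ganglia were taken 0.5, 3, 6 or 9 h later. All groups therefore carried the same injury and anaesthesia. No uninjured or sham-operated group was analysed here, so 0.5 h served as the baseline. Per the labels there were 6 rats per time and 3 one-colour arrays per time, with no statement of which rats gave which array, so that the p-values measure the spread between these samples, which may be technical.

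Sox11 and Sox4 belong, with Sox12, to the SoxC group of the Sox family, transcription factors that bind DNA through a high-mobility-group (HMG) box and activate their targets through a domain near the carboxyl end. In the developing nervous system both are switched on as neuronal precursors become young neurons and drive neuronal genes, and in adult sensory neurons Sox11 is known to return after axon injury and to promote axon regrowth. Sox4 is also used widely outside the nervous system, in lymphocyte and cardiac development among others.

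The probe sequences are shown because each gene's values rest on so few of them and because the genes are related. Capitals mark the longest run of letters that a probe shared with a probe of the other gene, and positions are on the rn4 build, as the array annotation gives them.
Sox11 probe A_44_P545498, chr6:45142098-45142157, minus strand: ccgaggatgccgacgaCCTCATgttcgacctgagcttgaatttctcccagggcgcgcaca
Sox4 probe A_44_P382226, chr17:42174685-42174744, plus strand: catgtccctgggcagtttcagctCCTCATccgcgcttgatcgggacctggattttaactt
Sox4 probe A_43_P16820, chr17:42173535-42173594, plus strand: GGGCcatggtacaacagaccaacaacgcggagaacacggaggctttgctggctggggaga
The shared runs were at most 6 of 60 letters. The third Sox4 probe, A_44_P1071095 at chr17:42175031-42175090, lay farthest downstream. All 4 are annotated to the reference messenger RNA of their gene. Whether each lies in coding sequence or in a UTR was not looked up, since no rn4 gene annotation was used here.

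Levels are given as log2 of the scanner's processed intensity minus the 75th percentile of the same array, so that 0 is the 75th percentile of that array. A level belongs to its probe, and the levels of Sox11 and Sox4 cannot be set against each other. A difference between times was called when its Benjamini-Hochberg adjusted p in limma, over all genes of that comparison, was under 0.05.

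Sox11 was 2.94-fold higher at 9 h than at 0.5 h and 5.08-fold higher than at 6 h, while it was not called at 3 h. Its processed intensity was 111, 105 and 130 at 0.5 h, 103, 85.7 and 109 at 3 h, 55.8, 76.4 and 75.6 at 6 h, and 375, 321 and 346 at 9 h. On the scaled log2 scale the arrays read -4.05, -4.09 and -3.76 at 0.5 h, -4.12, -4.46 and -3.94 at 3 h, -5.06, -4.49 and -4.72 at 6 h, and -2.33, -2.52 and -2.38 at 9 h. The 3 arrays at 9 h lay above all other arrays, the 3 at 6 h lay below all those at 0.5 and 3 h, and the arrays at 0.5 and 3 h overlapped. In these whole-tissue samples, fewer cells of a type and less RNA per cell cannot be told apart.

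The mean level of Sox11 was -3.97 ± 0.18 at 0.5 h, -4.18 ± 0.26 at 3 h, -4.76 ± 0.29 at 6 h and -2.41 ± 0.10 at 9 h (SD, n = 3 each). The 4 times differed (limma F test, adjusted p = 4.36e-05), a result that 44.2% of all genes tested shared. At 9 h against 0.5 h the log2 difference was 1.56 with a 95% interval of 1.18 to 1.93 (SE 0.167, limma adjusted p = 0.000211), in a comparison where 33.7% of all genes were called and 23.4% were called higher at 9 h. Arrays at 9 h that all lay above those at 0.5 h, as for Sox11, were found for 33.1% of genes. Of the 29626 genes, 466 had a larger increase than Sox11, and 440 of those were called. The difference was 2.35 at 9 h against 6 h (limma adjusted p = 1.52e-05) and 1.76 at 9 h against 3 h (3.40-fold, limma adjusted p = 0.000159), where 25.4% and 23.5% of genes were called, 19.5% and 17.5% of all genes higher at 9 h. The arrays at 9 h lay wholly above those at 6 h for 33% of genes and above those at 3 h for 28%.

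At 6 h Sox11 was 1.73-fold lower than at 0.5 h, a log2 difference of -0.79 with an interval of -1.16 to -0.42 (limma adjusted p = 0.0151), in a comparison where 13.4% of genes were called, 9.08% were called lower at 6 h, and 22.1% had arrays at 6 h that all lay below those at 0.5 h. This difference was lost under another background correction (normexp on the raw spot and local background signals), which gave 0.0058 with a limma adjusted p of 0.997. At 6 h against 3 h the difference was -0.58 and was not called (limma adjusted p = 0.054), although the arrays did not overlap. There 10.8% of genes were called, and the arrays at 6 h lay wholly below those at 3 h for 22.9%. At 3 h against 0.5 h it was -0.21, with an interval of -0.58 to 0.16 (limma adjusted p = 0.406), in a comparison where 23.3% of genes were called.

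The Sox11 probe was dim. Its raw signal was 2.74, 2.74 and 3.37 times the local background on the arrays at 0.5 h, 3.87, 3.30 and 4.04 times at 3 h, 3.07, 3.04 and 3.17 times at 6 h, and 10.4, 9.57 and 10.5 times at 9 h. It thus stood clear of background at every time, but by little at the first 3 times. The normexp correction also left the rise at 9 h against 0.5 h at 1.39 but no longer called (limma adjusted p = 0.209), and called far fewer genes over the whole array (71 higher and 341 lower, against 6947 and 3051).

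Sox4 was not called in any comparison. Its brightest probe, used in the test across genes, had processed intensities of 3936, 3712 and 3339 at 0.5 h, 3196, 3124 and 3923 at 3 h, 3546, 3708 and 3959 at 6 h, and 3884, 4667 and 4468 at 9 h. The 2 highest arrays were at 9 h and the 2 lowest at 3 h, and the arrays of every pair of times overlapped. The mean level was 1.02 ± 0.09 at 0.5 h, 0.93 ± 0.26 at 3 h, 1.01 ± 0.09 at 6 h and 1.23 ± 0.17 at 9 h (SD, n = 3 each).

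The log2 difference of Sox4 was 0.21 at 9 h against 0.5 h, with a 95% interval of -0.08 to 0.50 (limma adjusted p = 0.247). It was -0.01 at 6 h against 0.5 h (-0.30 to 0.28) and -0.09 at 3 h against 0.5 h (-0.39 to 0.20), with limma adjusted p = 0.964 and 0.651. The 3 intervals against 0.5 h together ran from -0.39 to 0.50, and do not show that Sox4 was the same at all times. The difference nearest to a call was 0.30 at 9 h against 3 h (interval 0.01 to 0.59, limma adjusted p = 0.128), which was 0.45 and called without replicate 3 at 3 h (limma adjusted p = 0.0166).

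**Figure D1:**
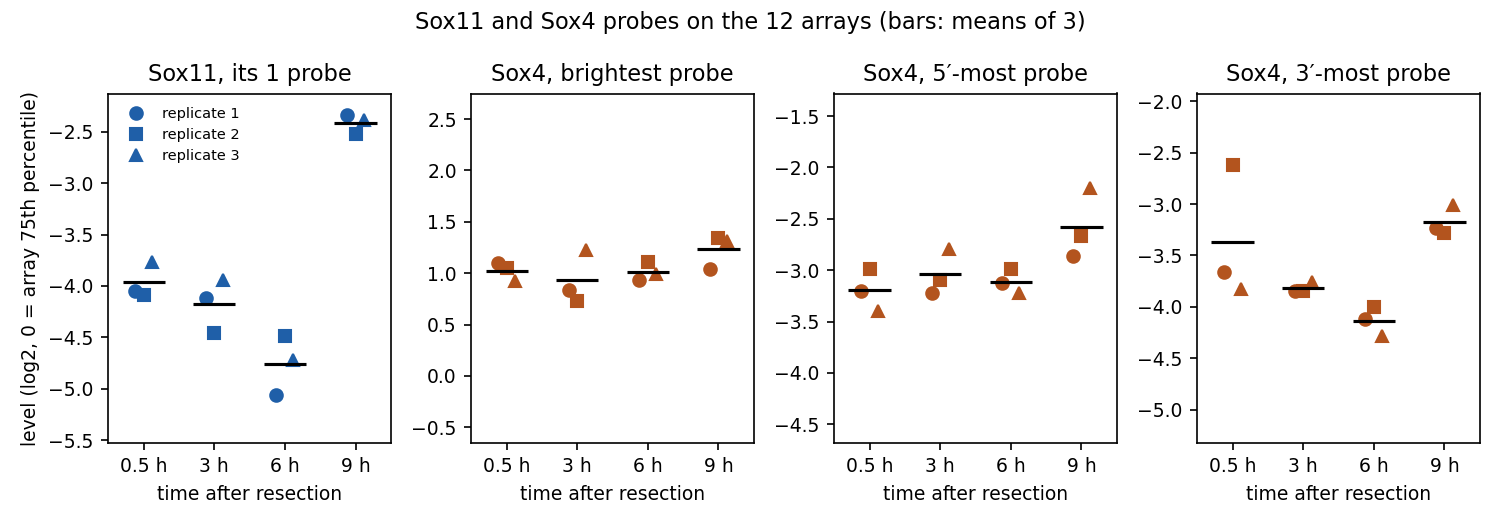
Scaled log2 levels of the Sox11 probe and of the 3 Sox4 probes by hours after resection, with 1 point per array, 3 per time, and bars for the means. All 3 Sox11 arrays at 9 h lie above every earlier array, whereas the arrays of the brightest Sox4 probe overlap at all 4 times.

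The 2 dimmer Sox4 probes did not take the same course as the brightest one at every time. The upstream probe A_43_P16820 read 199, 226 and 167 at 0.5 h, 192, 220 and 242 at 3 h, 213, 217 and 213 at 6 h, and 260, 290 and 392 at 9 h in processed intensity. Fitted with every kept probe as its own feature, it was higher at 9 h than at 0.5 h by 0.62 (1.54-fold, SE 0.178, limma adjusted p = 0.0238), with 33.5% of 34841 probes called. In that comparison 23.1% of probes were called higher. All 3 arrays of A_43_P16820 at 9 h lay above those at 0.5 h, as was found for 33.1% of genes. The call of this probe was lost without replicate 1 or replicate 3 at 0.5 h or replicate 3 at 9 h (limma adjusted p = 0.056, 0.0807 and 0.0706). Under 6 other processing settings that keep all arrays its rise ran from 0.42 to 0.83 and was called in 4.

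The downstream probe A_44_P1071095 read 145, 292 and 124 at 0.5 h, 124, 131 and 124 at 3 h, 107, 107 and 102 at 6 h, and 201, 189 and 225 at 9 h. It was higher at 9 h than at 6 h by 0.96 (1.95-fold, SE 0.257, limma adjusted p = 0.0213), with 24.8% of probes called and 18.6% called higher. At 9 h against 0.5 h it differed by 0.20 (limma adjusted p = 0.578), and by 0.57 and called (adjusted p = 0.0067) without replicate 2 at 0.5 h, the array that read 292. The rise at 9 h against 6 h was not called without replicate 1 or 3 at 6 h or replicate 3 at 9 h (limma adjusted p = 0.0527, 0.0762 and 0.0706). Under 6 other processing settings that keep all arrays this rise ran from 0.62 to 0.96 and was called in 3. The 3 Sox4 probes thus gave 0.21, 0.62 and 0.20 at 9 h against 0.5 h, all above 0, and only the upstream one was called. Whether they detect different transcripts was not tested.

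The courses of Sox11 and Sox4 were compared within arrays, where scaling by a constant drops out. Sox11 minus the brightest Sox4 probe averaged -4.99 ± 0.26 at 0.5 h, -5.11 ± 0.13 at 3 h, -5.77 ± 0.20 at 6 h and -3.64 ± 0.25 at 9 h (SD, n = 3 each). Only changes in this difference have a meaning, since the probes differ. An exact permutation test over all 369600 assignments of the 12 arrays to 4 times gave p = 0.000325. The Sox11 probe and the brightest Sox4 probe thus took different courses beyond the spread between arrays of a time. No slide was shared between times, so the test cannot part time from slide. The comparison also sets a dim probe (mean level -3.83) against a bright one (1.05), and dim probes shifted between times, as given below. The dimmer Sox4 probes were not put to this test, and the part of brightness in its result was not tested. Relative to the brightest Sox4 probe, Sox11 changed at 9 h by 1.35 when set against 0.5 h and by 2.13 when set against 6 h. At 6 h it changed by -0.78 when set against 0.5 h. Each of these pairs gave p = 0.1 in a two-sided exact permutation test, the smallest that 3 arrays against 3 allow. Under the normexp correction this exact permutation test over 4 times gave p = 0.0928.

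**Figure D2:**
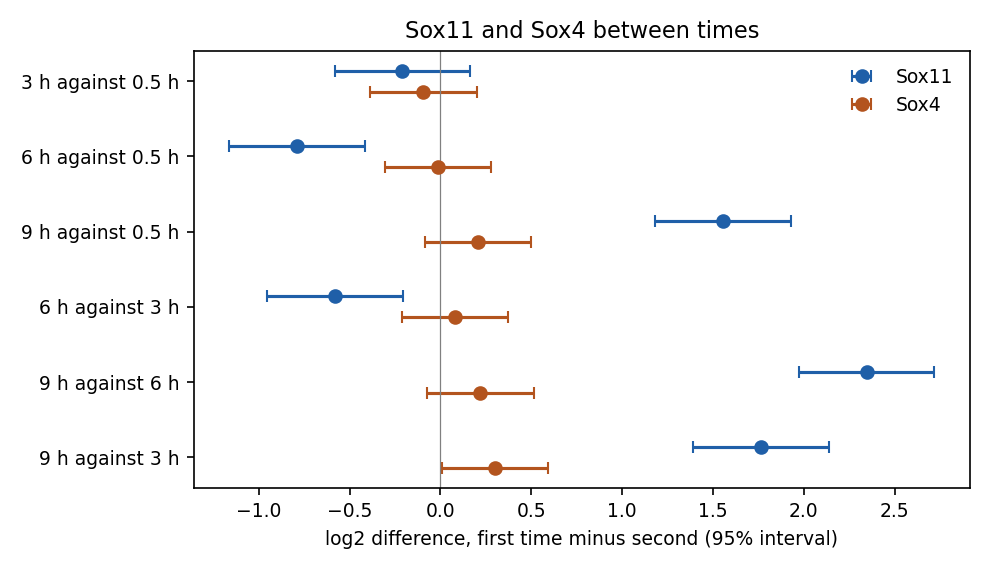
Log2 differences of Sox11 and of the brightest Sox4 probe in the 6 comparisons between times, with bars for the 95% interval from limma, later time minus earlier time. Sox11 at 9 h stands at 1.56, 2.35 and 1.76 against 0.5, 6 and 3 h, and the Sox4 intervals include 0 in every comparison but 9 h against 3 h.

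Since a single dim probe carried the Sox11 values, probes placed by the array annotation on the same strand within 5 kb downstream of it were also read. This was done after its values had been seen. There were 4, named only by the accession of an expressed sequence tag (EST), a short read of a cDNA, and 3 of them stood well above background on every array. The annotation assigns them to no gene, and whether they belong to the Sox11 transcript was not tested. The brightest of them is BF554576, whose probe is printed for that reason.
BF554576 probe A_42_P681722, chr6:45140615-45140673, minus strand: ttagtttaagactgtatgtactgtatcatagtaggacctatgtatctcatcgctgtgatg
It lies 1.425 kb downstream of the Sox11 probe.

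All 3 downstream probes were called higher at 9 h than at 0.5 h, in a comparison where 23.1% of all kept probes were called higher. BF554576 read 1188, 1216 and 1264 at 0.5 h, 1058, 1072 and 1032 at 3 h, 1167, 1044 and 1177 at 6 h, and 2814, 2607 and 2518 at 9 h in processed intensity, with the arrays at 9 h far above all others. It was higher at 9 h than at 0.5 h by 1.08 (2.11-fold, SE 0.0607, limma adjusted p = 2.0e-05). BE107070, 0.849 kb downstream, was higher by 1.27 (2.41-fold, limma adjusted p = 0.000198), and AI103122, 2.923 kb downstream, by 1.38 (2.61-fold, limma adjusted p = 2.55e-05). At 9 h against 6 h, where 18.6% of probes were called higher, the 3 probes were higher by 1.24, 1.41 and 1.18. Under the normexp correction the rise at 9 h against 0.5 h was still called for BF554576 and AI103122, at 1.01 and 1.32 (limma adjusted p = 0.00205 and 0.00866), and was not called for BE107070, at 1.14 (limma adjusted p = 0.193).

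The decrease at 6 h was not called in these probes. At 6 h against 0.5 h, where 12.7% of probes were called, BF554576 differed by -0.16, BE107070 by -0.14 and AI103122 by 0.20, none of them called (limma adjusted p = 0.115, 0.549 and 0.174). With normexp on a capped local background BF554576 was called lower at 6 h, by a log2 difference of -0.23 (limma adjusted p = 0.0435). AI103122 read 359, 330 and 342 at 0.5 h and 362, 430 and 432 at 6 h, so its arrays at 6 h were above those at 0.5 h in intensity, and overlapped them once scaled. At 3 h against 0.5 h, where 23.1% of probes were called, BF554576 and AI103122 fell by 0.20 and by 0.34 (limma adjusted p = 0.0384 and 0.0252). Sox11 minus each downstream probe differed over the 4 times in exact permutation tests over the 12 arrays (p = 0.00253 for BE107070, 0.000649 for BF554576 and 0.00734 for AI103122; 0.0038, 0.00195 and 0.00734 adjusted over the 3). The Sox11 probe thus did not keep a fixed distance from any of them, though here too time and slide cannot be told apart.

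**Figure D3:**
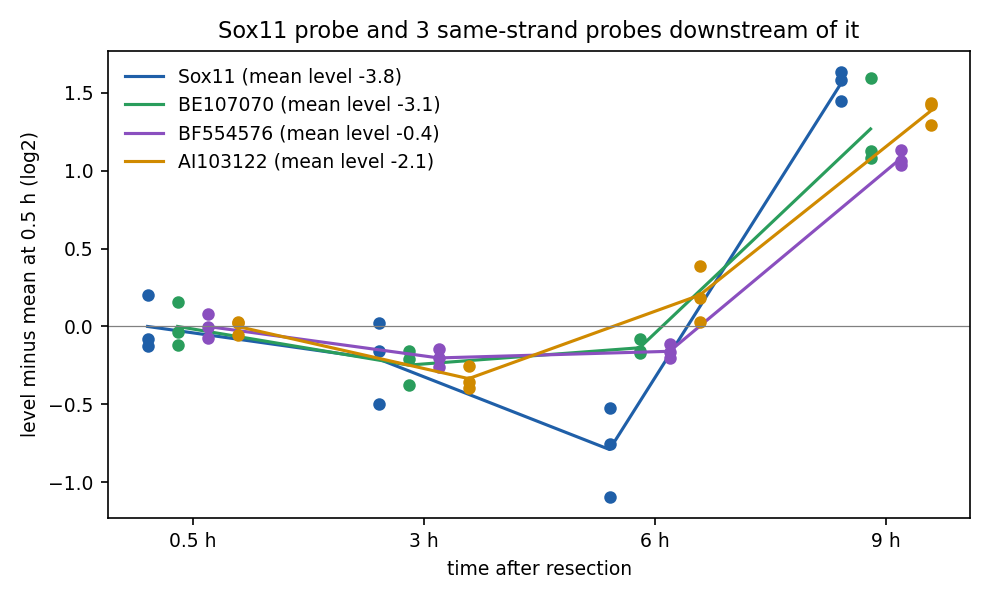
Scaled log2 levels, each minus its probe's mean at 0.5 h, for the Sox11 probe and the 3 downstream probes named by EST accession, by hours after resection, with points for arrays and lines through the means. All 4 probes are highest at 9 h, and at 6 h the mean of Sox11 stands at -0.79 while the others stand between -0.16 and 0.20.

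Dim probes as a whole shifted between times, and the Sox11 probe lies among them. Among the 3934 kept probes whose mean level was between -4 and -3, as that of Sox11 was, the median log2 difference at 9 h against 0.5 h was 0.17 (10th to 90th percentile -0.39 to 0.77) and 26.2% were called higher. At 6 h against 0.5 h their median was -0.11 (-0.59 to 0.28) and 14.4% were called lower. The rise of Sox11 at 9 h, 1.56, and its decrease at 6 h, -0.79, both lay outside these ranges. For the 3280 probes of BF554576's brightness the range at 9 h against 0.5 h was -0.37 to 0.34, and BF554576 lay outside it as well. The downstream Sox4 probe, as dim as Sox11, differed at 6 h from 0.5 h by -0.76 and was not called (limma adjusted p = 0.0809). That difference ranged from -0.99 to -0.39 on leaving out 1 array at a time, was called without replicate 3 at 0.5 h (limma adjusted p = 0.0418), and was called with a capped local background or cyclic loess scaling (limma adjusted p = 0.0177 and 0.0368). The part of brightness in the Sox11 values was not tested beyond this.

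**Figure D4:**
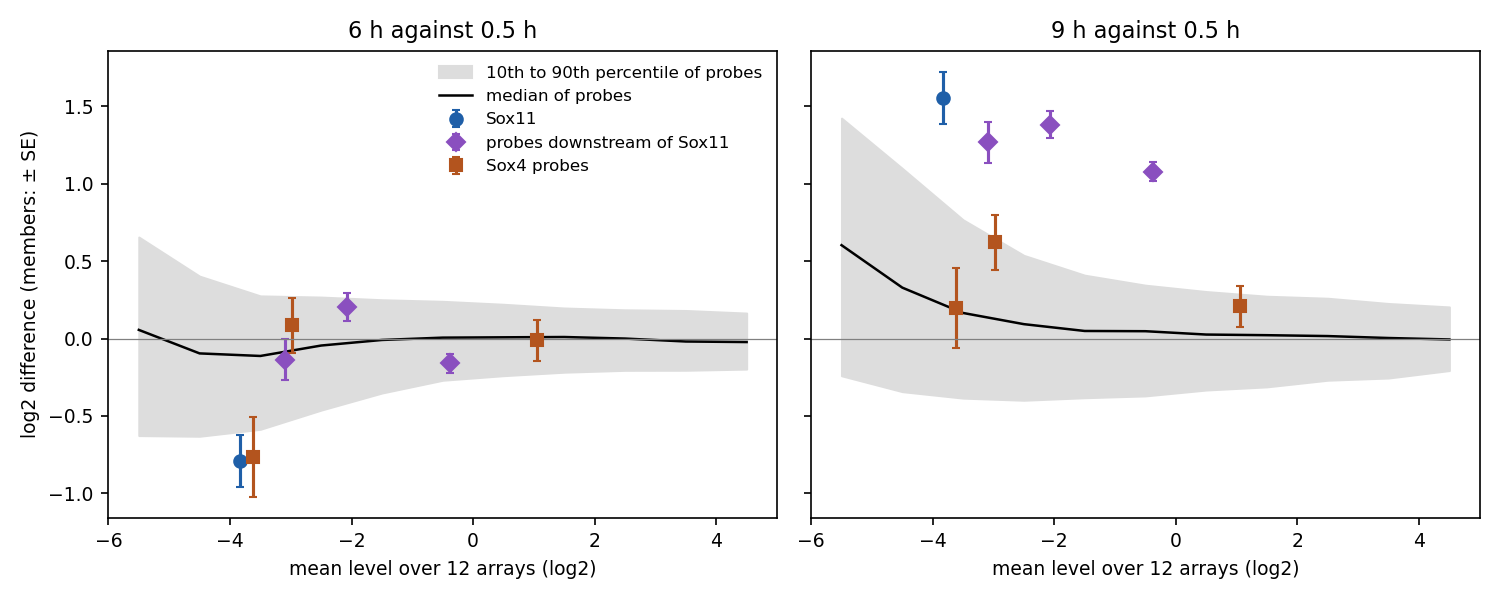
Log2 differences from 0.5 h of the arrays at 6 h and at 9 h, by the mean level of the probe, with the median (line) and the 10th to 90th percentile (grey) of kept probes in bins 1 log2 unit wide, and marks with SE for Sox11, the 3 probes downstream of it and the Sox4 probes. The dimmest bins shift upward at 9 h, and Sox11 lies outside the range of its own bin in both comparisons.

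The times also differed in scanning. The arrays at 0.5 h shared a slide and a scan day, those at 9 h another slide and day, and those at 3 and 6 h were scanned on one day from separate slides, with 6 h on 2 slides. Time and scan day cannot be told apart, except that 3 and 6 h share a day, and there the Sox11 difference was the uncalled -0.58 given above. Median local background was 64 to 86 on the arrays at 0.5 h and 37 to 45 on the others, and 63.3 to 67.6% of probes were well above background at 0.5 h, against 82.3 to 85.4% later. Within a time, arrays correlated at 0.983 to 0.996 over the genes tested, each by its brightest probe.

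Markers of the tissue's cells were read beside the Sox11 rise. At 9 h against 0.5 h, 33.7% of all genes were called and 23.4% were called higher. All 9 sensory neuron markers, among them Prph and Calca, were tested, and 0 of 9 were called at 9 h against 0.5 h. Their summed level, in units of the array's 75th percentile, was 599 to 648 at 0.5 h, 598 to 654 at 3 h, 559 to 594 at 6 h and 603 to 642 at 9 h, so that the 9 h range lay within that of 0.5 h. Oligodendrocyte markers, of cells in the nerve root, summed to 0.436 to 0.523 at 0.5 h, 0.344 to 0.656 at 3 h, 0.259 to 0.379 at 6 h and 0.592 to 1.11 at 9 h, and 1 of 3, Mobp, was called higher at 9 h than at 0.5 h. Satellite glia markers summed to 8.70 to 11.6 at 0.5 h, 10.6 to 11.2 at 3 h, 6.58 to 7.59 at 6 h and 8.60 to 11.8 at 9 h. Of these 3, Fabp7 was called lower at 6 h than at 0.5 h (log2 difference -0.80) and higher at 9 h than at 6 h (0.82), the direction in which Sox11 moved (limma adjusted p = 0.0435 and 0.0232). Of all genes, 9.08% were called lower at 6 h than at 0.5 h and 19.5% higher at 9 h than at 6 h. Endothelial markers summed to 6.22 to 7.48 at 0.5 h, 8.07 to 8.46 at 3 h, 6.18 to 6.49 at 6 h and 6.53 to 7.15 at 9 h, and 1 of 4, Cdh5, was called higher at 9 h than at 0.5 h (0.51, limma adjusted p = 0.00228). The 2 of 3 lymphocyte markers tested summed to 0.0405 to 0.0647 at 0.5 h, 0.0577 to 0.0834 at 3 h, 0.0736 to 0.287 at 6 h and 0.126 to 0.159 at 9 h, and neither was called at 9 h. Schwann cell markers summed to 394 to 503 at 0.5 h, 342 to 381 at 3 h, 333 to 359 at 6 h and 373 to 419 at 9 h. Of these 5, Pmp22 was called lower at 3, 6 and 9 h than at 0.5 h (log2 differences -0.39, -0.47 and -0.34). In these comparisons 23.3, 13.4 and 33.7% of all genes were called. Skeletal muscle markers, of tissue outside the ganglion, ranged widely within every time, with sums of 22.6 to 62.9 at 0.5 h, 28.6 to 157 at 3 h, 31.6 to 294 at 6 h and 37.8 to 120 at 9 h. Neutrophil markers summed to 13.8 on replicate 3 at 6 h, against 2.56 and 2.16 on the other arrays at 6 h. No tested marker of neutrophils, fibroblasts, macrophages, red blood cells or adipocytes was called in any comparison. The part of RNA from any of these cell types in the Sox11 values was not tested.

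Of 18 other Sox family genes listed, 12 were tested. At 9 h against 0.5 h, 5 were called higher and 1 lower, in a comparison where 33.7% of all genes were called and 23.4% were called higher. One of the 5, Sox13, had no array above background at 0.5 h, and its call shows no rise. The median was 0.20 over the 12 against 0.11 over all genes, and 3 were called higher and 2 lower when arrays were scaled to their median. At 6 h against 0.5 h, where 13.4% of all genes were called, 0 rose and 4 fell (median -0.25 against -0.03 over all genes), and at 3 h against 0.5 h, where 23.3% were called, 0 rose and 2 fell (median -0.18 against 0.03). Set against 6 h, 4 rose at 9 h and 0 fell (median 0.23 against 0.11), with 25.4% of all genes called. Set against 3 h, 6 rose at 9 h and 1 fell (median 0.62 against 0.09), with 23.5% called. At 6 h against 3 h 0 rose and 1, Sox15, fell (median 0.09 against -0.07), with 10.8% called.

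Sox15, known from muscle and trophoblast cells, rose at 9 h by 1.17 against 0.5 h (limma adjusted p = 0.00114) and fell at 6 h by 0.94 (adjusted p = 0.00927). Its mean level was -2.20 ± 0.17 at 9 h and -3.37 ± 0.21 at 0.5 h (SD, n = 3 each). Sox14, of spinal and brain interneurons, and Sox21, a SoxB2 factor of neural precursors, rose at 9 h by 1.04 and 0.82 (adjusted p = 0.00971 and 0.00674), and Sox21 fell at 6 h by 0.64 (adjusted p = 0.0416). Sox14 was well above background on 2 of the 3 arrays at 0.5 h. Like Sox11, these genes were dim, with Sox14 and Sox21 at -4.34 and -2.82 at 0.5 h. In the bins of mean level from -5 to -2, 20.2 to 34.6% of kept probes were called higher at 9 h against 0.5 h. Set against 6 h, Sox15, Sox14 and Sox21 were higher at 9 h by 2.11, 1.73 and 1.46, the direction in which Sox11 moved. The part of brightness in these differences was not tested. Sox18, of endothelium, rose by 0.49 (adjusted p = 0.032), and Sox13 was called higher at 9 h (adjusted p = 0.0308), with none of its arrays at 0.5 h well above background, so no fold is given.

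The SoxD genes Sox5 and Sox6, factors of glia and cartilage, were lower at 3 and 6 h than at 0.5 h. Sox5 goes by the name LOC312831 on the array and was matched through its reference transcript. Sox5 fell by 0.87 at 3 h, by 0.60 at 6 h and by 0.41 at 9 h against 0.5 h (limma adjusted p = 0.000456, 0.00722 and 0.0139). Sox6 fell by 0.55 at 3 h and by 0.45 at 6 h (adjusted p = 0.00516 and 0.0205), of which the second turned in sign with the mean of its probes or under normexp. Sox6 was higher at 9 h than at 6 h by 0.67 (adjusted p = 0.000993). At 9 h against 3 h Sox5 and Sox6 were higher by 0.46 and 0.77 (limma adjusted p = 0.0105 and 0.000778). Sox17, an endothelial factor, fell by 0.55 at 9 h against 3 h (adjusted p = 0.0102). The remaining tested genes, the stem cell and satellite glia factor Sox2, Sox7, the glial factor Sox9 and Sox10, the factor of Schwann and satellite cells, were not called in any comparison. Sox10 had a mean level of 4.53 at 9 h and 4.54 at 0.5 h. Sox1, Sox3, Sox12 and Sry were not found under those names among the array's gene names, and Sox8 and Sox30 were not kept as above background.

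**Figure D5:**
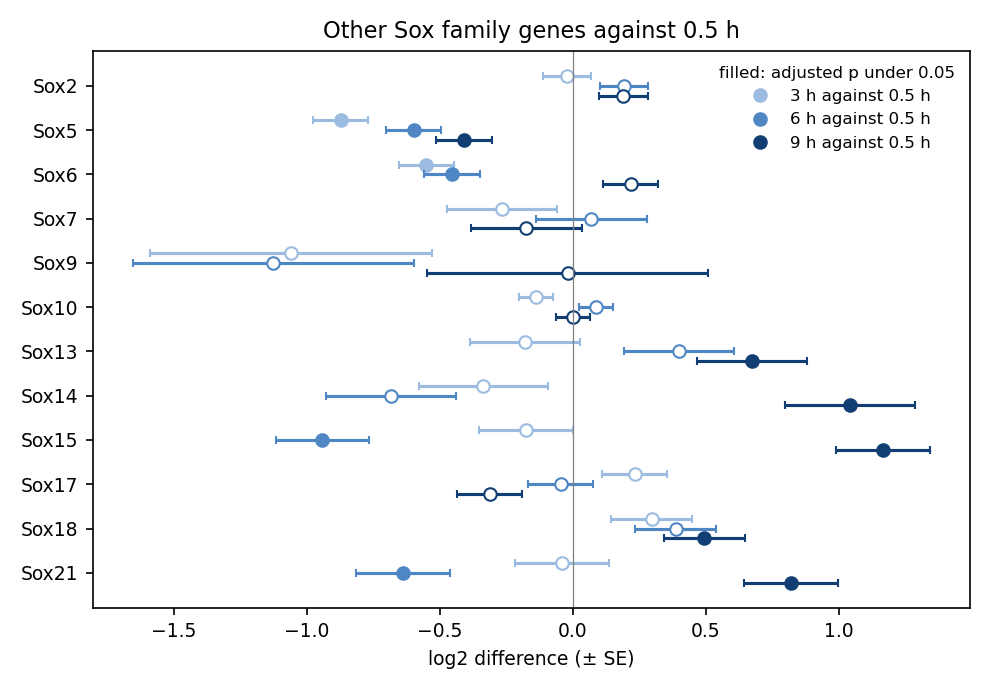
Log2 differences of the 12 other Sox genes tested, at 3, 6 and 9 h against 0.5 h, with filled marks for called differences and bars for the SE. Sox15 at 1.17 and Sox14 at 1.04 stand highest at 9 h, and no difference at 3 or 6 h is both called and above 0.

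Of 8 genes reported downstream of Sox11 or Sox4 in neurons, 7 were tested, and none rose and 1 fell at 9 h against 0.5 h (median 0.05 against 0.11 over all genes), in a comparison where 23.4% of all genes were called higher and 33.7% either way. The one that fell was Map2, a dendritic microtubule protein, by 0.77 (limma adjusted p = 0.000331), and it was lower at 3 and 6 h as well, by 0.72 and 0.63 (adjusted p = 0.000636 and 0.00392). Tubb3, the neuronal beta-tubulin, differed at 9 h against 0.5 h by 0.20 and Dcx, a microtubule protein of young neurons, by 0.14, neither of them called (adjusted p = 0.143 and 0.283). Tead2, a Hippo pathway factor, fell by 0.32 at 3 h against 0.5 h (adjusted p = 0.00951), was higher at 6 h than at 3 h by 0.41 and lower at 9 h than at 6 h by 0.26 (adjusted p = 0.00506 and 0.0212). Tank, an adaptor of innate immune signalling, rose by 0.22 at 3 h (adjusted p = 0.0431). Sprr1a, a protein of injured axons, was not found among the array's gene names.

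Of 12 proneural and POU factors and the repressor REST, 8 were tested, and 2 were called higher and 1 lower at 9 h against 0.5 h (median 0.08), where 33.7% of all genes were called. Pou3f1, of myelinating Schwann cells, fell by 0.59 (adjusted p = 0.00112). Neurod1, a factor of neuronal differentiation, was 1 of the 2 called higher (adjusted p = 0.00429), but none of its arrays at 0.5 h stood clear of background, and the call shows no rise. Pou4f2, a sensory neuron factor, differed by 0.50 and was not called (adjusted p = 0.05004).

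All 14 transcription factors listed for injured sensory neurons were tested, and 5 rose and 2 fell at 9 h against 0.5 h (median 0.24 against 0.11 over all genes), with 33.7% of all genes called. Atf3, the factor most used to mark axotomised sensory neurons, rose by 1.84 (3.58-fold, SE 0.22, limma adjusted p = 0.000373). Cebpb and Jun, also known to be induced by injury, each rose by 0.59 (adjusted p = 0.000911 and 0.000969), and Creb1, which mediates cyclic AMP responses, by 0.34 (adjusted p = 0.00117). At 6 h against 0.5 h, 1 of the 14 rose and 2 fell, with 13.4% of all genes called, and at 9 h against 6 h, 6 rose and 1 fell, with 25.4% called.

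Likeness to each gene's pattern was measured as the root mean square distance between centred log2 levels over the 12 arrays, among 21389 other genes well above background on all arrays. Among the 5 nearest to Sox11 were Ccr1l1 at a distance of 0.12, Rasal1 at 0.16 and the olfactory receptor genes Olr132 and Olr1602 at 0.16 each, where the median gene was at 0.88. Picked for this likeness, they shared both Sox11 changes. Against 0.5 h, in the order named, they differed by -0.83, -0.72, -1.12 and -0.80 at 6 h. At 9 h they differed by 1.41, 1.48, 1.34 and 1.45. The part of brightness in this likeness was not tested. The 5 nearest to Sox4 were Vps8 at 0.05, Npepl1 at 0.06, St5 at 0.07, AW142609 at 0.07 and Tatdn2 at 0.07, where the median gene was at 0.24. Sox4 itself lay 0.79 from Sox11, with 3087 genes nearer to Sox11 and 21109 nearer to Sox4. The points share arrays and scaling, and the distances are a description.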

How the data were processed

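Rat dorsal root ganglion RNA was amplified, labelled with Cy3 and hybridised to 12 one-colour Agilent arrays, per the labels' protocols. Agilent Feature Extraction 10.5.1.1 gave the deposited intensity per spot, background-subtracted on a linear scale, per the file headers. Of any later scaling, the sources used here say nothing. The authors deposited a series-wide table with the same intensity values (largest difference 0). The number of arrays limits the precision.

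Control spots (1639) and outlier flags (76 to 218 per array) were left out, and no spot was saturated. Spots of one probe were averaged as log2 intensity minus the array's 75th percentile. A probe was kept if well above background on every array of at least 1 time (34841 of 41012), and the brightest probe stood for its gene name (29626). limma 3.58.1 in R 4.3.3 fitted 4 group means (lmFit, eBayes) on all 12 arrays, with Benjamini-Hochberg adjustment over all genes. Exact permutation tests used Python 3.11.15. The fit and the permutation test were tested on simulated data.

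Named were Sox11, Sox4 and their probes, the 5 genes nearest to each, every called gene of the Sox and downstream lists, and up to 4 of each other list by adjusted p at 9 h against 0.5 h. A few genes that this rule names are not reported here. The members and lists were chosen with earlier results of these data known. The same replicate numbers did not pair arrays across times (correlations of deviations from -0.133 to 0.223). Alternatives were normexp background correction (offset 50, also with the local background capped), other scalings, filters and probe rules, slide and replicate blocks, and leaving out each array.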

Additional observations from a re-analysis of the deposited data

How the results depend on the processing

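Under plain normexp background correction Sox11 at 6 h differed by 0.0058 from 0.5 h and by 0.25 from 3 h, both turned in direction, and by 1.39, 1.39 and 1.63 at 9 h against 0.5, 6 and 3 h, no longer called (limma adjusted p = 0.209, 0.42 and 0.122; F test 0.233), and the Sox11 minus Sox4 exact permutation test gave p = 0.0928; the cause was not tested. Under the other alternatives that keep all arrays the rises of Sox11 at 9 h kept their call, from 1.06 to 1.57 against 0.5 h. Sox11 at 6 h against 3 h became called at -0.39 with the local background capped, at -0.58 with only probes above background on all arrays or with a trended robust variance, and at -0.55 with slide as a random block (consensus correlation -0.255). Sox4 turned in sign, near 0 and uncalled, at 3 h against 0.5 h (0.0209 under normexp, 0.0214 capped), 6 h against 0.5 h (0.0105 normexp, 0.0554 capped, 0.0854 median scaling), 6 h against 3 h (-0.0104 normexp, -0.10 mean of probes) and 9 h against 6 h (-0.0044 median scaling). It became called at 9 h against 6 h with the mean of its probes (0.57) and, with the slide block, at 9 h against 3 h (0.30) and in the F test (0.0378). No slide was shared between times, and the slide block raised the calls over all genes. At 9 h against 3 h it gave 9670 higher and 4166 lower, against 5194 and 1759 in the main fit. By probe, A_43_P16820 gave 0.16, 0.0849 and -0.0753 at 3 h and 6 h against 0.5 h and 6 h against 3 h, and a called 0.62 at 9 h against 0.5 h; A_44_P1071095 gave -0.32 at 6 h against 3 h, a called 0.96 at 9 h against 6 h and an F test of 0.039.

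Leaving out 1 array at a time, Sox11 ranged from -0.33 to -0.07 at 3 h, -0.92 to -0.64 at 6 h and 1.49 to 1.66 at 9 h against 0.5 h, from 2.19 to 2.48 at 9 h against 6 h, 1.62 to 1.88 at 9 h against 3 h and -0.72 to -0.43 at 6 h against 3 h. The last was called without replicate 2 at 3 h (-0.72) and without replicate 2 at 6 h (-0.71). Its F test ranged from 8.18e-05 to 0.00036. Sox4 ranged from -0.24 to 0.0081, -0.0622 to 0.0279 and 0.15 to 0.30 at 3, 6 and 9 h against 0.5 h, from 0.16 to 0.32 at 9 h against 6 h, 0.20 to 0.45 at 9 h against 3 h and -0.0203 to 0.23 at 6 h against 3 h, with an F test from 0.0407 to 0.543; the 0.0407 and the called 0.45 came without replicate 3 at 3 h.

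With the replicate number as a block, Sox11 at 9 h against 0.5 h stayed at 1.56 and no call of Sox11 or Sox4 changed, and the whole count at 9 h against 0.5 h was 6419 higher and 2616 lower, against 6947 and 3051. Median scaling moved the median of all genes at 9 h against 3 h from 0.09 to -0.11. Relative to that median Sox11 stood at 1.67 under both. This had to be so, since the scalings differ only by a constant per array, and it is no check of the value. Under median scaling the calls split into 4284 higher and 5082 lower at 9 h against 0.5 h. They split into 3523 and 6564 (main 5789 and 1740) against 6 h and 3287 and 6687 (main 5194 and 1759) against 3 h. At 6 h against 0.5 h they were 2569 and 1673 (main 1268 and 2689). Chosen after the data were seen were fits of the single probes: under normexp BE107070 turned to 0.27 at 6 h against 0.5 h and lost its calls at 9 h against 0.5 and 6 h (1.14 and 0.87, limma adjusted p = 0.193 and 0.624), A_43_P16820 to -0.0977 (capped), with a range of -0.0159 to 0.19 on leaving out arrays, and A_44_P1071095 at 9 h against 0.5 h to -0.12 (cyclic loess) and -0.0297 (without replicate 3 at 0.5 h; highest 0.57). The dim signal of the Sox11 probe limits what can be said of its changes below the level at 0.5 h.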

Other observations

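Within 5 kb of the Sox4 probes the array also held probes on the opposite strand, again named only by EST accession. AI013050 and BF560932 were lower at 3 h than at 0.5 h by log2 differences of -0.69 and -0.54 (limma adjusted p = 0.0139 and 0.0041). At 9 h against 0.5 h they differed by -0.22 and -0.11, neither of them called (limma adjusted p = 0.311 and 0.413). A further probe, BE110111, was not well above background on the arrays at 0.5 h, so no difference from 0.5 h is given for it. These probes were read after the values of Sox4 had been seen, and what transcript they detect was not tested.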
